A study of Mus musculus with 9 samples.

Results

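Zbtb32 and Zbtb20, genes for transcription factors of the BTB-zinc finger (BTB-ZF) family, were followed through B cell activation and plasma cell (PC) differentiation. They are 2 of the 29995 genes in the deposited table that lacks immunoglobulin (Ig) genes. Both were chosen by name with earlier results of these libraries known. Zbtb32 was picked for its high level in one group of these libraries, so its levels are given as a description without a test. Zbtb20 was picked for its known role in PCs, and its differences were tested.

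RNA was sequenced from spleen cells of B6.Blimp1+/GFP mice aged 12 weeks, which had received 50 µg NP-LPS (a hapten coupled to bacterial lipopolysaccharide) by the intraperitoneal route 4 days earlier. The mice of every group carry GFP in an allele of Prdm1, the gene for Blimp1, so that GFP marks Blimp1-expressing cells. There were 3 groups of 3 libraries, and the labels give the same 3 mice as the source of the cell types, so the groups share animals. Naive B cells were B220+ IgD high cells without NP binding. Activated B cells specific for NP, called NP+ B cells below, were B220+ and negative for IgD, GFP and CD138. NP-binding PCs were GFP+ CD138+ and negative for IgD. All 3 groups came from immunized mice, so the naive cells are those that had not bound antigen in an immunized spleen. Cells bearing CD4, CD8a, Ter-119 or F4-80 were excluded in the sort.

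BTB-ZF proteins pair through their BTB domain, bind DNA through zinc fingers and mostly repress transcription by recruiting corepressors such as NCoR and histone deacetylases. Bcl6, the repressor that germinal centre B cells require, belongs to this family. Zbtb32 was described as a repressor of GATA3, as a partner of the Fanconi anaemia protein FANCC, and as a partner of Blimp1 in silencing Ciita, which drives MHC class II genes. Zbtb20 acts downstream of IRF4 in PCs and supports their survival in some immunizations. In liver it represses Afp, the fetal alpha-fetoprotein gene, and in macrophages it represses Nfkbia, an inhibitor of NF-kB.

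The libraries held 20189947 to 38602257 estimated reads without Ig genes. Values below are TPM, transcript levels corrected for transcript length and library size, from the table without Ig genes. Log2 changes are fitted by limma on log2 (TPM + 0.5), and a gene was called when its Benjamini-Hochberg adjusted p was under 0.05 and its fold change over 2. Markers of B cells summed to between 6667 and 9832 TPM in the B cell libraries and to at most 1581 TPM in PCs, while PC markers summed to at least 21783 TPM in PCs and at most 1323 TPM elsewhere. Liver transcripts stood out in PC replicate 3, where 8 liver markers summed to 4884 TPM against 26.5 and 22.8 TPM in PC replicates 1 and 2. Macrophage markers summed to 10.5 to 10.7 TPM in naive B cells, 53.6 to 70.5 TPM in NP+ B cells and 35.3, 46.9 and 123 TPM in PC replicates 1, 2 and 3. Granulocyte markers summed to 53.9 TPM in NP+ B cell replicate 2 and to 1.84 and 0.974 TPM in replicates 1 and 3. In PC replicates 1, 2 and 3 they summed to 7.68, 6.97 and 35.0 TPM, and in naive B cells to 1.53 to 3.80 TPM. Erythroid markers summed to 15.5 to 18.5 TPM in naive and 18.7 to 30.3 TPM in NP+ B cells. In PC replicates 1, 2 and 3 the erythroid sums were 17.87, 6.265 and 37.33 TPM. In NP+ B cells most of the macrophage sum was Cd68, at 45.0 to 67.6 TPM, while the complement genes C1qa, C1qb and C1qc each had under 0.1 TPM. Lyz2 on this list had 5.51 TPM in NP+ B cell replicate 2. In PC replicates 1, 2 and 3 Cd68 had 28.77, 33.01 and 35.64 TPM and Lyz2 2.847, 11.55 and 48.19 TPM. In PC replicate 3 C1qa, C1qb and C1qc had 7.236, 15.86 and 12.58 TPM, against at most 1.178 TPM in PC replicates 1 and 2. T cell markers summed to 461 to 485 TPM in naive B cells, 381 to 462 TPM in NP+ B cells and 19.8 to 28.1 TPM in PCs. Nearly all of this in the B cell groups was Cd2 (357 to 421 TPM) and Lck (20.4 to 56.7 TPM). The CD3 chain genes Cd3e and Cd3g had at most 1.15 and 1.607 TPM in any library, and Cd4 and Thy1 at most 1.133 and 0.3717 TPM. Cd3d had 1.002 to 2.855 TPM and Cd8a 0.6524 to 3.193 TPM, with Cd8a means of 2.733, 1.061 and 1.588 TPM in naive B cells, NP+ B cells and PCs. Dendritic cell markers summed to 303.5 to 342.4 TPM in naive B cells, 361.6 to 368.1 TPM in NP+ B cells and 649.9 to 693.0 TPM in PCs. Most of this was Cst3, at 296.5 to 335.8, 338.3 to 344.5 and 637.1 to 677.1 TPM, while Itgax had at most 1.16 TPM and Clec9a at most 0.631 TPM in any library. Siglech, Xcr1 and Batf3 had at most 1.879, 1.652 and 2.269 TPM. Flt3 and Ccr9 on this list differed between groups. Flt3 had 1.765 to 2.384 TPM in naive B cells, 15.83 to 19.43 TPM in NP+ B cells and 4.453 to 5.339 TPM in PCs. Ccr9 had 1.069 to 1.917 TPM in naive B cells, 1.262 to 4.224 TPM in NP+ B cells and 4.146 to 7.913 TPM in PCs.

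Zbtb32 lies on the reverse strand of chromosome 7 (chr7:30589681-30598909, GRCm38, 9.23 kb), with 3 annotated transcripts. Zbtb20 lies on the forward strand of chromosome 16 (chr16:42875881-43642602, 767 kb), with 21 transcripts from 19 start positions. The files sum the transcripts of a gene, so the start in use was not seen. Because both genes were highest in the same group, the 250 bases before a RefSeq start (GRCm38.p6) of each are shown 5′ to 3′, with CCAAT boxes in capitals.
Zbtb32, chr7:30598910-30599159, reverse strand: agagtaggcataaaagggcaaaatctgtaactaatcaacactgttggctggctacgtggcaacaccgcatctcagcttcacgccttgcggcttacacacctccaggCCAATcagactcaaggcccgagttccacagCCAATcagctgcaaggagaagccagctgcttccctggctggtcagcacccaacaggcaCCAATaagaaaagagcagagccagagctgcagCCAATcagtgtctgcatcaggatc
Zbtb20, chr16:43247034-43247283, forward strand: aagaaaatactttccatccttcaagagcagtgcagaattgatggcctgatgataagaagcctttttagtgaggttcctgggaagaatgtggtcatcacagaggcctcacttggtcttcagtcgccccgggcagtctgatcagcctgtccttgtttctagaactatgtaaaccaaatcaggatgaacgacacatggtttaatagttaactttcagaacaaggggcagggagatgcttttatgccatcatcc
The Zbtb32 sequence holds 4 CCAAT boxes, the binding letters of NF-Y, all in the sense of the gene and beginning 144, 114, 56 and 24 bases before the start. CCAAT on either strand occurs in 33.8% of the 32851 RefSeq promoter windows of this length, and 0.84% hold at least 4 matches. The Zbtb20 sequence holds none, nor does that before a second Zbtb32 start (chr7:30592943-30593192, reverse strand). None of the 3 windows holds TATAAA (12.4% of all windows) or the AP-1 letters TGANTCA (6.75%) on either strand, with N for any base. These searches were chosen with the sequences in view, and a match says only that the letters are there.

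Zbtb32 was low in naive B cells, high in NP+ B cells and low again in PCs. In naive B cells its levels were 2.73, 2.09 and 3.47 TPM in replicates 1 to 3. In NP+ B cells they were 329.9, 300.3 and 315.5 TPM. In PCs they were 2.78, 2.19 and 2.58 TPM. The NP+ B cell libraries were thus far above the others without overlap, while the naive and PC libraries overlapped. The mean of 315 ± 14.8 TPM (SD, n = 3) in NP+ B cells was 114 times the naive mean of 2.77 ± 0.69 TPM and 125 times the PC mean of 2.52 ± 0.301 TPM.

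**Figure D1:**
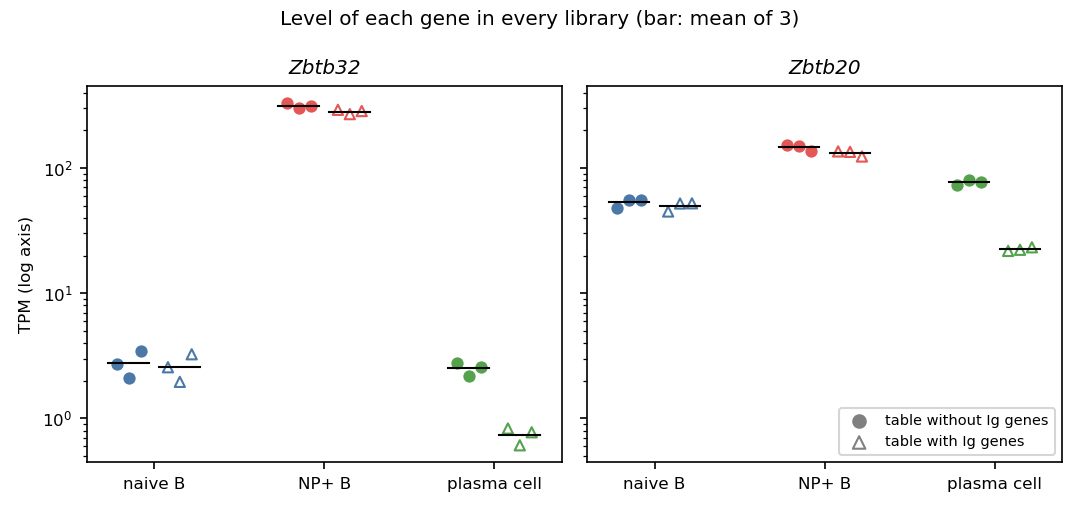
TPM of Zbtb32 (left) and Zbtb20 (right) on a log axis in each of the 9 libraries, with circles for the table without Ig genes, triangles for the table with Ig genes and a bar for the mean of 3. Both genes are highest in NP+ B cells, and the PC values are lower in the table with Ig genes (22.4 TPM on average for Zbtb20) than in the table without them (76.8 TPM).

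Reads behind the low values were few but present. The estimated count of Zbtb32 was 79.7 to 113 reads in naive libraries, 13047 to 14637 in NP+ B cell libraries and 59.4 to 73.6 in PC libraries. The SD between libraries was 24.9% of the mean in naive B cells, 11.9% in PCs and 4.69% in NP+ B cells, where the counts were highest. Among the 12892 genes tested, Zbtb32 stood at the 22.2 ± 3.13 percentile of TPM in naive B cells, at the 96.1 ± 0.0829 percentile in NP+ B cells and at the 26.9 ± 0.824 percentile in PCs (mean ± SD, n = 3). Its fitted log2 difference of 6.61 between NP+ and naive B cells was second only to that of another gene among all those tested, and its difference of -6.71 between PCs and NP+ B cells was the 14th lowest. Since Zbtb32 was picked on this pattern, these ranks describe the choice.

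Between PCs and naive B cells the log2 difference of Zbtb32 was -0.10, smaller than the SD between libraries (0.307 on the log2 scale in naive B cells). Its sign depended on the scaling. In the table with Ig genes Zbtb32 had 0.83, 0.61 and 0.774 TPM in PCs against 2.59 ± 0.647 TPM in naive B cells, a log2 difference of -0.85, whereas it was 0.31 under median-of-ratios scaling and 0.39 under quantile normalization. Bulk libraries cannot tell fewer expressing cells from less RNA per cell.

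Zbtb20 was expressed in all 3 groups and was also highest in NP+ B cells. Its levels were 48.0, 55.7 and 55.8 TPM in naive B cells, 153.5, 150.1 and 136.8 TPM in NP+ B cells, and 72.9, 79.9 and 77.5 TPM in PCs. The groups did not overlap, and the order was naive B cells, PCs and NP+ B cells from low to high. Zbtb20 rose 2.76-fold from 53.1 ± 4.47 TPM in naive to 147 ± 8.8 TPM in NP+ B cells (SD, n = 3). Its fitted log2 change was 1.45 ± 0.10 (SE, limma adjusted p = 4.19e-06). In this comparison 8.13% of the genes tested were called higher, and 94.9% of them had a smaller log2 change than Zbtb20.

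In PCs the mean was 76.8 ± 3.55 TPM, which was 1.45 times the naive mean. The log2 change of 0.52 ± 0.11 had an adjusted p of 0.00171 in limma but lay under the 2-fold limit, so it was not called. Against NP+ B cells the PC level was lower, with a fitted log2 change of -0.93 ± 0.10 (SE, limma adjusted p = 1.65e-05), also under 2-fold and not called. The estimated counts were 3386 to 4121 in naive, 11451 to 13247 in NP+ B cell and 3751 to 4213 in PC libraries.

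The direction of Zbtb20 between PCs and naive B cells depended on whether Ig genes were kept. With Ig genes in the table its levels were 21.8, 22.2 and 23.3 TPM in PCs and 44.9, 52.0 and 52.2 TPM in naive B cells, a log2 change of -0.68 (limma adjusted p = 0.000217, not called). The median of all tested genes fell by 0.93 on the log2 scale more than in the table without Ig genes. Measured from that median, Zbtb20 stood 0.72 higher with Ig genes and 1.00 higher without. Median-of-ratios scaling gave 1.01, which passed the 2-fold limit, and 1.06 from its median. Between PCs and NP+ B cells the table with Ig genes gave -2.12 (limma adjusted p = 9.49e-08, called), and -0.84 from its median against -0.63 without Ig genes.

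**Figure D2:**
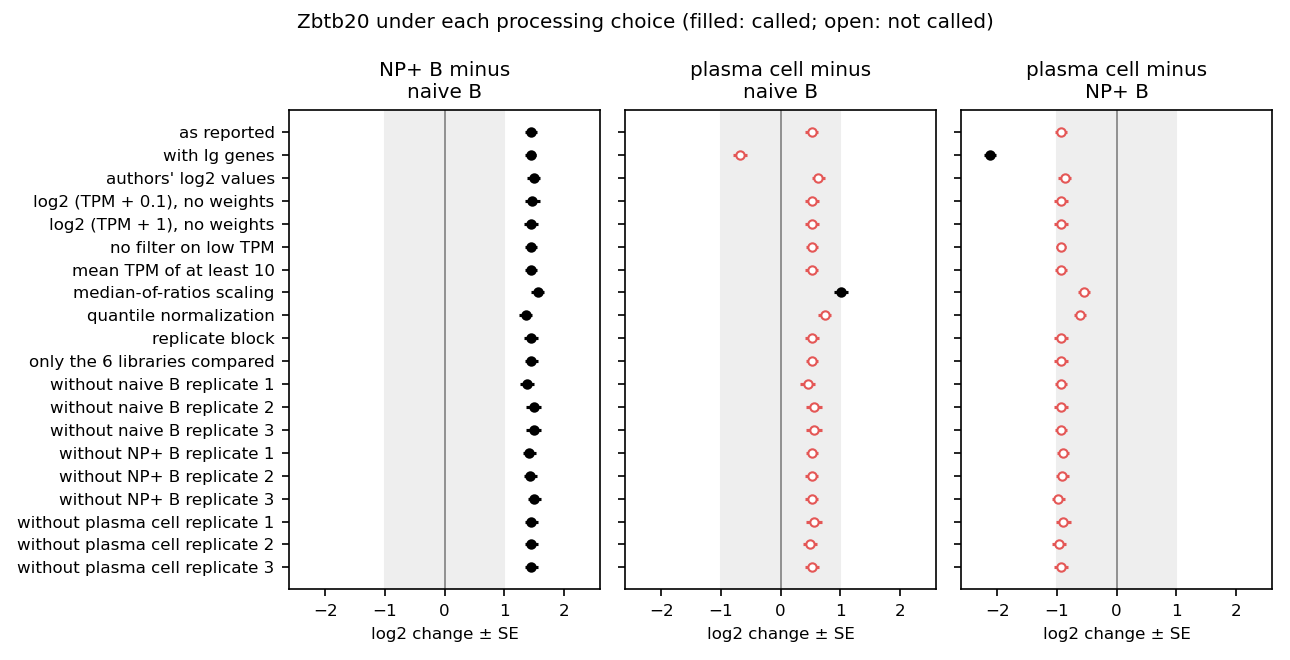
Log2 change of Zbtb20 ± SE in the 3 comparisons (panels) as reported and under each processing choice (rows), with filled points where the gene was called, open points where it was not, and grey for the range under 2-fold. The rise in NP+ over naive B cells was called in every row, whereas PCs minus naive B cells ran from -0.68 with Ig genes to 1.01 under median-of-ratios scaling.

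The position of Zbtb20 within a library does not depend on such scaling. It stood at the 79.4 ± 1.74 percentile of the tested genes in naive B cells, at the 91.3 ± 0.729 percentile in NP+ B cells and at the 86.8 ± 0.566 percentile in PCs (SD, n = 3), in the same order as its TPM. In PC replicate 3, the library with liver transcripts, Zbtb20 had 77.5 TPM, between the values of the other PC libraries. Without that library the log2 change between PCs and naive B cells was again 0.52 and that between PCs and NP+ B cells again -0.93. The part of the macrophage markers in the NP+ B cell values was not tested.

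Side by side, the genes changed places. Zbtb20 exceeded Zbtb32 in TPM by 16.1 to 26.6 times in naive libraries and by 26.2 to 36.5 times in PC libraries. In NP+ B cells Zbtb32 was the higher, by 2.15, 2.00 and 2.31 times in replicates 1 to 3. This ratio is taken within a library and so is free of library scaling. Of the summed TPM of 49 BTB-ZF genes, Zbtb32 made up 0.457% ± 0.0929 in naive B cells, 37.6% ± 0.836 in NP+ B cells and 0.767% ± 0.121 in PCs (SD, n = 3). The share of Zbtb20 was 8.83% ± 0.639, 17.5% ± 0.978 and 23.3% ± 1.55. In every PC library Zbtb20 ranked first of the 49 genes, in every NP+ B cell library Zbtb32 ranked first and Zbtb20 second, and in every naive library Zbtb20 ranked second, behind Zbtb7a, a regulator of lineage choice with 90.8 ± 3.66 TPM.

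The summed TPM of the other 47 BTB-ZF genes was 546 ± 30.3 in naive B cells, 377 ± 27.4 in NP+ B cells and 251 ± 19.3 in PCs. Of these, 38 passed the filter on low values (3 or more libraries with 1 TPM or more), and the 9 that did not, Zbtb16 (PLZF) and Hic1 among them, had group means under 1 TPM. In NP+ against naive B cells 0 of 38 were called higher in limma, with 2 higher at an unadjusted p under 0.05, and 8 were called lower, where 8.13% and 10.4% of all tested genes were called higher and lower. The median log2 change was -0.60 for the family and -0.16 for all genes. Under median-of-ratios scaling 5 were called lower and again 0 higher, where 7.54% and 9.37% of all tested genes were called lower and higher.

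The 4 largest falls in this comparison were those of Zbtb18 (log2 change -1.56 ± 0.20, limma adjusted p = 0.000195), Zbtb22 (-1.41 ± 0.36, adjusted p = 0.0097), Bcl6 (-1.40 ± 0.16, adjusted p = 6.95e-05) and Zbtb37 (-1.38 ± 0.31, adjusted p = 0.00513). Zbtb22 lost its call without NP+ B cell replicate 3 (-0.87) and Zbtb37 without replicate 1 (-0.97). Bcl6 lost its call when the authors' log2 values were fitted (limma adjusted p = 0.0627). Zbtb20 thus rose in a comparison in which none of the 38 was called higher, and its difference from them was not tested.

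Between PCs and naive B cells 1 of the 38 was called higher and 21 were called lower, against 11.4% and 26.3% of all tested genes, with a median log2 change of -1.10 beside -0.47 for all genes. Under median-of-ratios scaling the counts were 2 and 11, against 17.3% and 15.2% of all tested genes. Zbtb38, which encodes a protein that binds methylated DNA, was the gene that rose, from 16.5 ± 2.56 TPM to 47.2 ± 7.57 TPM (log2 change 1.48 ± 0.17, limma adjusted p = 2.41e-05). With Ig genes its change was 0.29 and not called. Bcl6 fell from 45.2 ± 4.51 TPM to 0.623 ± 0.435 TPM (log2 change -5.42). Zbtb18 (-2.96), Zbtb37 (-2.32) and Zbtb3 (-2.26) followed, all called. Between PCs and NP+ B cells 1 was called higher and 8 lower, against 9.93% and 22.3% of all tested genes, with medians of -0.48 and -0.30. Zbtb42 was called higher there, at 3.9 ± 0.514 against 1.53 ± 0.342 TPM (log2 change 1.13, limma adjusted p = 0.00259). Its call was lost with Ig genes (0.23) and with log2 (TPM + 1) values (0.96). Bcl6 (-4.02), Patz1 (-2.08), Zbtb25 (-1.89) and Zbtb5 (-1.85) had the largest falls.

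**Figure D3:**
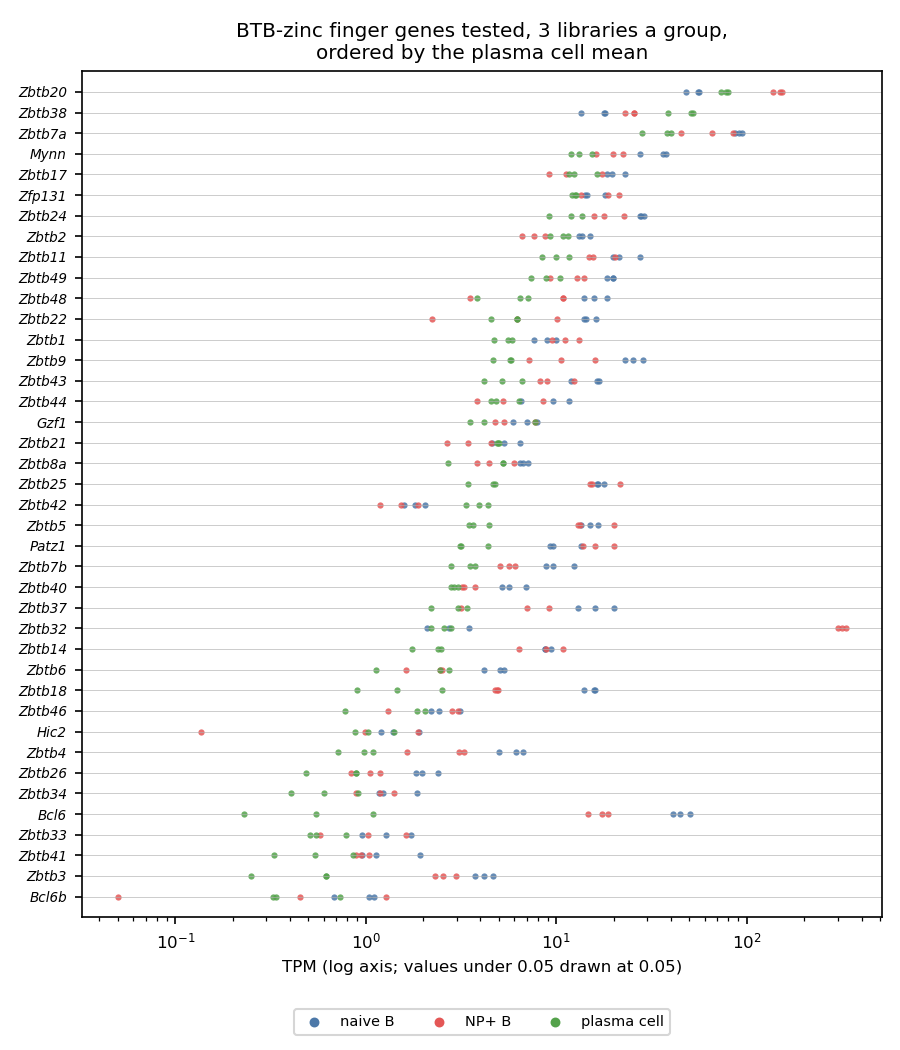
TPM on a log axis of the 40 BTB-ZF genes that passed the filter on low values, with 1 point per library coloured by group and rows ordered by the PC mean. Zbtb20 heads the order in PCs, while Zbtb32 (315 TPM on average) and Zbtb20 (147 TPM) are the farthest right in NP+ B cells.

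Corepressors with which BTB-ZF proteins act were examined next, from a list of 16 genes that all passed the filter. In NP+ against naive B cells 1 was called higher and 1 lower, which is 6.25% of the list each way beside 8.13% and 10.4% of all tested genes. Ctbp1, a corepressor that binds several zinc finger proteins, was called higher (log2 change 1.75 ± 0.61, limma adjusted p = 0.0404), with uneven levels of 52.1, 8.55 and 23.5 TPM in NP+ B cells, the lowest just above the 4.2 to 8.23 TPM of naive B cells. It lost the call in 6 of the 9 fits that each left out a library (log2 change 1.14 to 2.40 over all 9). Hdac5, a class IIa histone deacetylase, fell from 37.4 ± 2.97 to 17.9 ± 2.75 TPM (log2 change -1.06, limma adjusted p = 0.000423), and its call was lost without NP+ B cell replicate 2 (-0.96) and under median-of-ratios scaling (-0.95). Hdac3, the deacetylase of the NCoR complex, had 51.8 ± 1.99 TPM in naive and 80.9 ± 13.3 TPM in NP+ B cells (log2 change 0.62, not called).

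In PCs against naive B cells 1 corepressor was called higher and 4 lower, and against NP+ B cells 2 higher and 5 lower. The shares lower, 25.0% and 31.2%, stood beside 26.3% and 22.3% of all tested genes, and those higher, 6.25% and 12.5%, beside 11.4% and 9.93%. Hdac1 fell from 219 ± 15.6 TPM in naive and 228 ± 18.2 TPM in NP+ B cells to 63.4 ± 8.28 TPM in PCs (log2 changes -1.79 and -1.84, limma adjusted p = 3.32e-07 and 3.38e-07). Bcor, a corepressor of Bcl6, fell by log2 changes of -1.49 and -1.04, and Hdac4 by -1.32 and -1.54. Ncor1 (-1.33) and Ctbp1 (-1.88) fell against NP+ B cells. Ctbp1 lost this call without NP+ B cell replicate 3, PC replicate 1 or PC replicate 2 (-2.53 to -1.26 over the 9 fits that each left out a library), and also under quantile normalization (-1.37) and without the filter (limma adjusted p = 0.0628). Bcor against NP+ B cells was under 2-fold without NP+ B cell replicate 1 (-0.98) or 2 (-0.99) or PC replicate 2 (-0.92). Ncor1 lost its call without NP+ B cell replicate 1 (-0.88), which held 195.3 TPM of it against 66.2 and 87.2 TPM in the others. Sin3b, a scaffold for deacetylases, was the corepressor called higher in both, with log2 changes of 1.01 and 1.34, and Hdac5 rose against NP+ B cells (1.28). Under median-of-ratios scaling Hdac4 was not called against naive B cells, nor were Bcor and Ncor1 against NP+ B cells. Under quantile normalization Bcor (-0.95) and Hdac4 (-0.76) were not called against naive B cells, nor were Bcor (-0.60) and Ncor1 (-0.97) against NP+ B cells. Bcor against NP+ B cells was also under 2-fold with log2 (TPM + 1) values (-0.96). Sin3b against naive B cells was under 2-fold without naive replicate 1 or 3 (0.98 each) or PC replicate 3 (0.94). With Ig genes Sin3b had -0.20 and 0.14 and Hdac5 0.11, none of them called.

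Genes known to be connected with Zbtb32 were taken from a list of 13, of which 12 were tested, with Gata3 at group means of 0.417 to 1.05 TPM left out by the filter. In NP+ B cells, where Zbtb32 was high, Ciita had 82.0 ± 5.54 TPM against 192 ± 5.71 TPM in naive B cells (log2 change -1.24 ± 0.09, limma adjusted p = 5.05e-06). It was 0.542 ± 0.178 TPM in PCs, where Zbtb32 was low (log2 change against naive B cells -7.55 ± 0.25, adjusted p = 1.45e-09). In NP+ against naive B cells 0 of the 12 were called higher in limma, with 0 higher at an unadjusted p under 0.05, and 5 were called lower, namely Ciita, H2-Ob (-1.31), H2-Oa (-1.30), H2-DMb1 (-1.08) and H2-Aa (-1.06), where 8.13% and 10.4% of all tested genes were called higher and lower. All of these but Ciita encode MHC class II chains or chains of the class II peptide editors. Their changes were near the 2-fold limit, and H2-DMb1 (-0.97) and H2-Aa (-0.95) lost their calls under median-of-ratios scaling, H2-Aa also under quantile normalization (-0.77). H2-Oa lost its call in the fits without weights on the authors' log2 values (limma adjusted p = 0.478) and on log2 (TPM + 0.1) values (0.325). Cd74, the invariant chain, had -0.67, H2-Ab1 -0.64, H2-Eb1 -0.92, H2-DMa -0.59 and H2-DMb2 -0.57, each under 2-fold.

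In PCs 10 of the 12 fell and 1 rose, both against naive B cells (26.3% and 11.4% of all tested genes) and against NP+ B cells (22.3% and 9.93%). The median log2 change was -4.51 against naive B cells, where that of all tested genes was -0.47. Ciita and every MHC class II gene on the list were among the 10, from Cd74 (-2.53) to H2-Oa (-8.95), whose PC libraries held 0, 0.172 and 2.27 TPM. Prdm1, which encodes Blimp1, was the gene that rose. PCs were sorted on GFP from a Prdm1 allele, so the sort itself selected for this rise. Prdm1 had 2.5 ± 0.659 TPM in naive B cells, 4.76 ± 2.2 TPM in NP+ B cells and 98.2 ± 19.0 TPM in PCs. The log2 change of PCs against NP+ B cells was 4.29 ± 0.28 (limma adjusted p = 3.9e-07). The high level of Zbtb32 was therefore found in a group with little Prdm1, which was sorted as GFP negative. Fancc had 15.8 ± 3.78, 14.9 ± 4.23 and 12.8 ± 3.26 TPM in the 3 groups and was not called in any comparison.

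Of the 8 genes connected with Zbtb20, all were tested. Irf4, its activator in PCs, had 25.1 ± 3.01 TPM in naive B cells, 11.1 ± 3.58 TPM in NP+ B cells and 112 ± 22.6 TPM in PCs. It fell in NP+ B cells (log2 change -1.20 ± 0.27, limma adjusted p = 0.00555) and rose in PCs (2.12 ± 0.21 over naive B cells, adjusted p = 7.01e-06), so that its lowest and its highest group differed from those of Zbtb20. The fall was under 2-fold without NP+ B cell replicate 1 (-0.92), and the rise over naive B cells was under 2-fold with Ig genes (0.91). Nfkbia, a gene that Zbtb20 represses in macrophages, fell from 369 ± 3.5 TPM to 184 ± 26.8 TPM in NP+ B cells (-1.02 ± 0.11, limma adjusted p = 4.19e-05) and was at 182 ± 12.3 TPM in PCs (-1.03 against naive B cells), both at the edge of the 2-fold limit. Neither was called under median-of-ratios scaling or with the authors' log2 values (-0.99 and -0.93), the first was not called without NP+ B cell replicate 1 (-0.92), and the second was not called without PC replicate 2. Afp, repressed by Zbtb20 in liver, had only 3.25 ± 0.53, 1.63 ± 0.421 and 0.369 ± 0.272 TPM.

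The survival genes divided. Mcl1, which plasma cells need, had 71.2 ± 3.21, 89.6 ± 28.5 and 58.7 ± 0.296 TPM and was not called in any comparison. Bcl2 had 60.9 ± 3.36 TPM in naive and 59.7 ± 5.03 TPM in NP+ B cells and fell to 6.36 ± 1.23 TPM in PCs (log2 change -3.14 ± 0.17 against NP+ B cells, limma adjusted p = 9.18e-08). Bcl2l1, the gene for Bcl-xL, rose to 26.0 ± 3.74 TPM in PCs from 5.07 ± 0.422 TPM in naive B cells (2.24 ± 0.26, adjusted p = 2.6e-05). Xbp1, the secretory regulator, rose to 4174 ± 427 TPM from 119 ± 7.67 TPM (5.12 ± 0.11, adjusted p = 1.02e-10). On this list 0 genes were called higher in NP+ B cells by limma, with 2 higher at an unadjusted p under 0.05, and 2 lower. Of the 8 genes, 1 was called higher under median-of-ratios scaling, quantile normalization, the authors' log2 values and without NP+ B cell replicate 3. In these fits 9.37%, 8.97%, 8.66% and 7.96% of all tested genes were called higher. Both lower calls were lost without NP+ B cell replicate 1. In PCs 4 were higher and 3 lower than in naive B cells, and 4 were higher and 2 lower than in NP+ B cells. The 4 higher were Irf4, Bcl2l1, Xbp1 and Prdm1 in both comparisons. PCs were sorted on GFP from a Prdm1 allele, so the sort itself selected for the rise of Prdm1. The shares of all tested genes called higher and lower were 8.13% and 10.4% for NP+ against naive B cells, 11.4% and 26.3% for PCs against naive B cells and 9.93% and 22.3% for PCs against NP+ B cells.

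**Figure D4:**
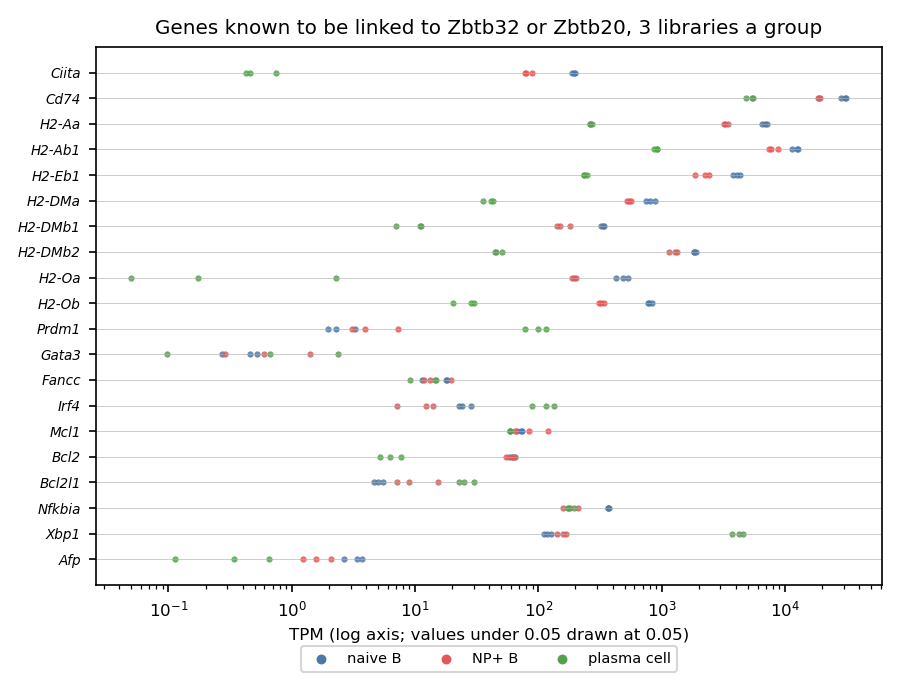
TPM on a log axis of the genes connected with Zbtb32 (Ciita to Fancc) and with Zbtb20 (Irf4 to Afp; Prdm1 belongs to both), with 1 point per library coloured by group. Ciita and the MHC class II genes have intermediate levels in NP+ B cells and the lowest in PCs (0.542 TPM on average for Ciita), and Irf4, Bcl2l1, Prdm1 and Xbp1 have their highest in PCs.

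The genes most like each of the pair were found by the Pearson correlation of log2 (TPM + 0.5) over the 9 libraries, among tested genes whose group means spanned at least 0.5 times the span of the gene itself. These correlations rest on 3 group levels and are a description. For Zbtb32, 642 genes were compared. Among the 5 closest were Ppfia4, a liprin (r = 0.989), Pik3r6, a regulatory subunit of PI3 kinase gamma (0.983), Hbb-bh1, an embryonic haemoglobin chain (0.983) and Gcsam, a germinal centre signalling protein (0.976). Hbb-bh1 had 64.5 ± 21.4 TPM in NP+ B cells and 0 TPM in PCs. The adult globin Hbb-bt had 9.0 to 12.9 TPM in naive B cells, 13.7 to 18.2 TPM in NP+ B cells and 0 to 3.71 TPM in PCs. The globins Hba-a1, Hba-a2 and Hbb-bs had their highest means in PCs, each with its highest value in PC replicate 3, the library with liver transcripts. In PC replicates 1, 2 and 3 Hba-a1 had 1.904, 0.3989 and 6.113 TPM. Hba-a2 had 7.886, 3.992 and 18.31 TPM there and Hbb-bs 4.762, 1.253 and 8.431 TPM. In naive B cells, NP+ B cells and PCs Hba-a1 had means of 1.267, 1.386 and 2.805 TPM. Those of Hba-a2 were 1.397, 2.234 and 10.06 TPM and those of Hbb-bs 2.049, 3.548 and 4.815 TPM. Hba-a1 and Hba-a2 had at most 2.46 and 4.92 TPM in NP+ B cells.

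For Zbtb20, 9351 genes were compared. Hmgn3, a nucleosome-binding protein (r = 0.993), the receptor kinase gene Flt3 (0.992), the scavenger receptor gene Cd36 (0.99), the RNA-processing gene Lsm6 (0.987) and the integrin gene Itgb1 (0.986) were the closest. All but Lsm6 had a wider span than Zbtb20, for example Cd36 with 16.2 ± 3.19, 183 ± 22.9 and 39.1 ± 6.85 TPM in naive B cells, NP+ B cells and PCs. Flt3, also on the dendritic cell marker list, had means of 2.16, 17.7 and 4.83 TPM in naive B cells, NP+ B cells and PCs, and the part of such cells in the Zbtb20 values was not tested. The correlation between Zbtb32 and Zbtb20 themselves was 0.92.

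**Figure D5:**
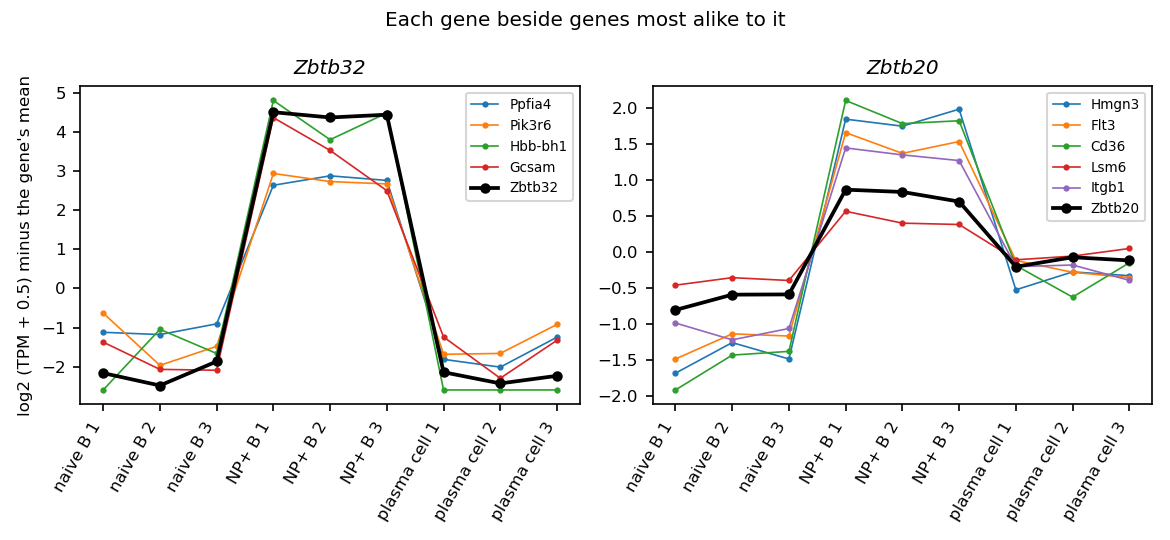
Log2 (TPM + 0.5) minus the mean over the 9 libraries for Zbtb32 (left, black) and Zbtb20 (right, black) with genes from the 5 most like each (coloured). All lines are highest in the 3 NP+ B cell libraries, and the PC libraries lie near the naive level for Zbtb32 but above it for Zbtb20, whose mean was 1.45 times the naive mean.

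The coding genes beside Zbtb32 in RefSeq are Kmt2b, a histone methyltransferase gene 624 bases away, and on the other side Upk1a (273 bases) and Cox6b1 (14152 bases). These distances are from the RefSeq span of Zbtb32, not from the GENCODE span given above. Kmt2b had 9.54 ± 2.07, 13.4 ± 0.92 and 7.66 ± 2.21 TPM in naive B cells, NP+ B cells and PCs and was not called in any comparison. Upk1a was at 0.267 ± 0.0422, 1.24 ± 0.581 and 1.84 ± 0.568 TPM, with its highest mean in PCs and calls over naive B cells in both other groups (log2 changes 1.12 and 1.58, limma adjusted p = 0.041 and 0.00406). Cox6b1, a subunit of cytochrome c oxidase, had 466 ± 31.2, 745 ± 68.4 and 872 ± 35.2 TPM, again highest in PCs and under 2-fold.

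Tigit, an inhibitory receptor gene, lies on the opposite strand at the end of Zbtb20. In RefSeq its span overlaps that of Zbtb20, and in the GENCODE annotation it starts 6264 bases after the end of Zbtb20 (chr16:43648867-43664146). The library kit did not mark strand. Tigit had 2.71 ± 0.523 TPM in naive B cells, 1.5 ± 0.354 TPM in NP+ B cells and 143 ± 6.7 TPM in PCs (log2 change of PCs over NP+ B cells 6.17, limma adjusted p = 3.27e-09). Zbtb20 had its highest level where Tigit had its lowest. Reads of overlapping antisense transcripts cannot be told apart from those of Zbtb20 itself. The pseudogenes within Zbtb20, BC002163, Gm15712 and Gm15711, had group means under 2 TPM. Drd3 and Gap43, the nearest other coding genes, had means of at most 0.15 TPM.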

How the data were processed

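RNA from 9 libraries (3 groups of 3) was made into cDNA with the SMART-Seq v4 kit and into libraries with Nextera XT, which does not mark strand. The paper names machines of 2 kinds, both read from a single end, for its study as a whole. Whether these libraries used 1 or both kinds is not given in the sources used here, so a sequencing batch was not examined. The authors pseudoaligned reads with kallisto (mm10 per the labels) and deposited TPM per gene symbol. The log2 values deposited beside them came out of the authors' voom step. Both exist with 30317 genes and without 322 Ig genes. Depth and estimated counts were recovered from the deposited log2 values, in which every gene at a TPM of 0 stands for 0.5 counts.

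TPM without Ig genes were passed to voom and limma 3.58.1 under R 4.3.3, as in the authors' methods. All 9 libraries entered a model of 3 group means, scaled to the column sum, without a block. The test covered 12892 genes, those that reached 1 TPM in 3 or more libraries, and Benjamini-Hochberg adjusted p-values run over all of them. The script was tested on simulated data. The labels call the libraries biological replicates from 3 mice. Alternatives covered the table with Ig genes, the authors' log2 values, offsets, filters, scaling, a replicate block, the libraries fitted and each library left out.

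Members and lists were chosen with earlier results of these data known. The genes named are both members, up to 4 called BTB-ZF genes in each direction and comparison, taken by the size of the change, all linked genes, called corepressors, the 5 genes most like each member, and the genes that neighbour or overlap them. Hdac3, Zbtb7a, Zbtb16, Hic1 and the marker and globin genes named fall outside this rule and were chosen after their values were seen. Coordinates are from GENCODE (GRCm38) and RefSeq, and promoter sequences are from RefSeq (GRCm38.p6). Both members have a promoter entry. A gene on the corepressor list and a gene most like Zbtb32 are counted but not reported here.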

Additional observations from a re-analysis of the deposited data

How the results depend on the processing

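Zbtb20 was called higher in NP+ than in naive B cells in every fit (log2 change 1.36 to 1.56, and 1.38 to 1.5 without each library in turn). PCs against naive B cells gave -0.68 with Ig genes (reversed), 1.01 under median-of-ratios scaling (called) and 0.45 to 0.56 without each library. PCs against NP+ B cells gave -2.12 with Ig genes (called) and -0.98 to -0.89 without each library. Keeping Ig genes shifted the median of all genes by -0.93 and -0.97 in the PC comparisons, and median-of-ratios scaling by 0.43 and 0.34. Called genes were then 6.49% and 53.3% higher against naive B cells, beside 30.2% as reported. Zbtb32 moved by more than the SD between libraries with the authors' log2 values (6.88 in NP+ against naive B cells, -6.90 in PCs against NP+ B cells), with Ig genes (-0.85 in PCs against naive, -7.43 against NP+ B cells), under median-of-ratios scaling (0.31 and -6.37) and quantile normalization (0.39 and -6.36), and with offsets of 0.1 (-6.92) and 1 (-6.49), and it ran from 6.45 to 6.76, -0.26 to 0.05 and -6.78 to -6.63 in the 3 comparisons without each library. Calls over all genes were 1179, 2965 and 2640 at a mean TPM of at least 10 (2388, 4870 and 4150 as reported, with fewer genes tested), and 8494 and 7775 in the PC comparisons with Ig genes. Without each library they ran from 2039 to 2600, 4588 to 4883 and 3926 to 4347.

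Other BTB-ZF genes called in NP+ against naive B cells numbered 5 with an offset of 1 (15.4% of all genes there). They numbered 3 of 16 at a mean TPM of at least 10 (16.2%), 5 under median-of-ratios (16.9%) and 5 under quantile (16.5%). Without each library they were 5 to 8, 5 being without naive replicate 3 (16.5%) or NP+ B cell replicate 1 (16.6%). PCs against naive B cells gave 13 of 16 at a mean TPM of at least 10 (40.7%). Under median-of-ratios they gave 13 of 38 (32.6%) and under quantile 12 of 38 (31.9%). PCs against NP+ B cells gave 24 of 36 with Ig genes (63.1%) and 4 of 16 at mean TPM of at least 10 (36.3%). Corepressors called in NP+ against naive B cells numbered 1 with an offset of 0.1, without a filter, under median-of-ratios scaling and with only the 6 libraries compared, and 1 to 3 without each library. In PCs against naive B cells they numbered 12 of 16 with Ig genes (68.9%) and 3 of 16 under median-of-ratios (32.6%). There they were 2 of 16 under quantile (31.9%) and 2 of 10 tested at a mean TPM of at least 10 (40.7%). Against NP+ B cells the PC counts were 12 of 16 with Ig genes (63.1%) and 4 of 16 under quantile (28.2%). Zbtb32-linked genes called in NP+ against naive B cells numbered 3 of 12 under median-of-ratios scaling (16.9% of all genes there). Zbtb20-linked genes called in that comparison numbered 0 to 3 without each library, 0 being without NP+ B cell replicate 1 (16.6%). Sin3b reversed to -0.20 between PCs and naive B cells with Ig genes. The 68 called results of named list genes, Sin3b included, kept direction and call in 590 of 612 fits without a library and in 630 of 666 others. Neighbours, genes picked by likeness and uncalled list genes were not followed singly. The cause of these moves was not tested. Of the 5 genes most like Zbtb32, 3 were shared with the smallest root mean square difference and 4 with the authors' log2 values, and of those most like Zbtb20, 0 and 4. Same-numbered libraries did not deviate together (9 correlations of deviations from group means, -0.07 to 0.07), and the groups share 3 mice, but which libraries came from the same mouse is not given in the sources used here. With the replicate block Zbtb20 had 1.45, 0.52 and -0.93 and 2453 genes (19%) were called in NP+ against naive B cells. Of the 38 other BTB-ZF genes, 6 were called there in place of 8. The block changed no call of Zbtb20 or among the 68 called results of named list genes. P-values reflect the spread of 3 libraries a group, and low levels rest on few reads, 59.4 for Zbtb32 in a PC library.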
